A study of Mus musculus with 9 samples.

Results

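Splenic follicular B cells of mice homozygous for a γ1 allele of the immunoglobulin heavy chain, γ1 being the constant region of the isotype IgG1, were compared with those of mice that kept the wild-type heavy chain locus. The comparison rests on 6 of the series' 9 arrays, 3 titled for each genotype. The other 3 arrays come from mice homozygous for an ε allele (ε gives the isotype IgE) and serve as a point of reference. The genotype labels read Igh[gamma]1/[gamma]1 VJk5, Ighwt VJk5 and Igh[epsilon]/[epsilon] VJk5, written here as γ1/γ1, wild-type and ε/ε. VJk5 is carried by all 9 samples, wild-type included, and the labels explain neither it nor how the alleles were made. All mice were 6 to 12 weeks old, were kept under specific-pathogen-free conditions and are described as polyclonal. The design calls the 3 replicates of each genotype independent but does not say that they are separate animals, so a p-value here reflects the spread among the samples as they are. In bulk RNA, fewer cells of a type and less RNA per cell cannot be told apart.

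A naive follicular B cell carries on its surface an antigen receptor made of an immunoglobulin heavy and light chain and the signalling partners CD79A and CD79B. The heavy chain constant region sets the isotype. Naive cells use μ and δ (IgM and IgD), while γ1 and ε are normally joined to the variable region only after antigen-driven class switching, and their membrane forms have a longer cytoplasmic tail than IgM. Through CD79A, CD79B and kinases such as SYK and BTK the receptor drives calcium, NF-κB, PI3K and immediate-early gene responses, and its strength helps decide whether a B cell becomes a follicular, marginal zone or B-1 cell.

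Values are log2 signals, 1 brightest probe set for each gene with a single symbol, for 12170 genes that lay above the array's median signal on at least 3 of the 9 arrays. The medians of all probe sets were 3.53 to 3.69, so a signal near these values is close to background. A gene is said to have risen or fallen where limma's adjusted p, over all 12170 genes, was under 0.05. Cells of both genotypes carried the message of B cells, that of follicular markers included. Ms4a1, which encodes CD20, read 9.84 ± 0.10 (SD, n = 3) in γ1/γ1 against 9.75 ± 0.07 in wild-type cells, and Fcer2a, which encodes CD23, read 10.12 ± 0.19 and 9.22 ± 0.25. All 20 follicular markers tested lay above the array median on every one of the 6 γ1/γ1 and wild-type arrays. So did 14 transitional and 18 marginal zone markers, so this does not tell follicular from other B cells. Pearson's r over genes was 0.948 to 0.968 among the γ1/γ1 arrays, 0.970 to 0.978 among the wild-type arrays and 0.945 to 0.975 between these genotypes. Xist, the RNA of the silenced X chromosome, read 4.53 on γ1/γ1 replicate 1 against 10.49 to 10.79 on the other 5 arrays, and Eif2s3y of the Y chromosome read 7.99 there and at most 3.52 on the others.

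Of the 12170 genes, 5 passed the test between γ1/γ1 and wild-type cells, which is 0.0411% of those tested. The 3 that rose (0.0247%) were Il9r, Cacna1e and St8sia6, and the 2 that fell (0.0164%) were Ighm and 4930597A21Rik. For scale, 772 genes (6.34%) differed between ε/ε and wild-type cells in the same fit. Both comparisons use the same wild-type arrays and are set side by side only. Without adjustment, 830 genes (6.82%) had a p under 0.05 between γ1/γ1 and wild-type, 369 higher and 461 lower. Over all genes the median difference was -0.02 on the log2 scale and the median absolute difference 0.15. The 95th percentile of the absolute difference was 0.53.

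**Figure D1:**
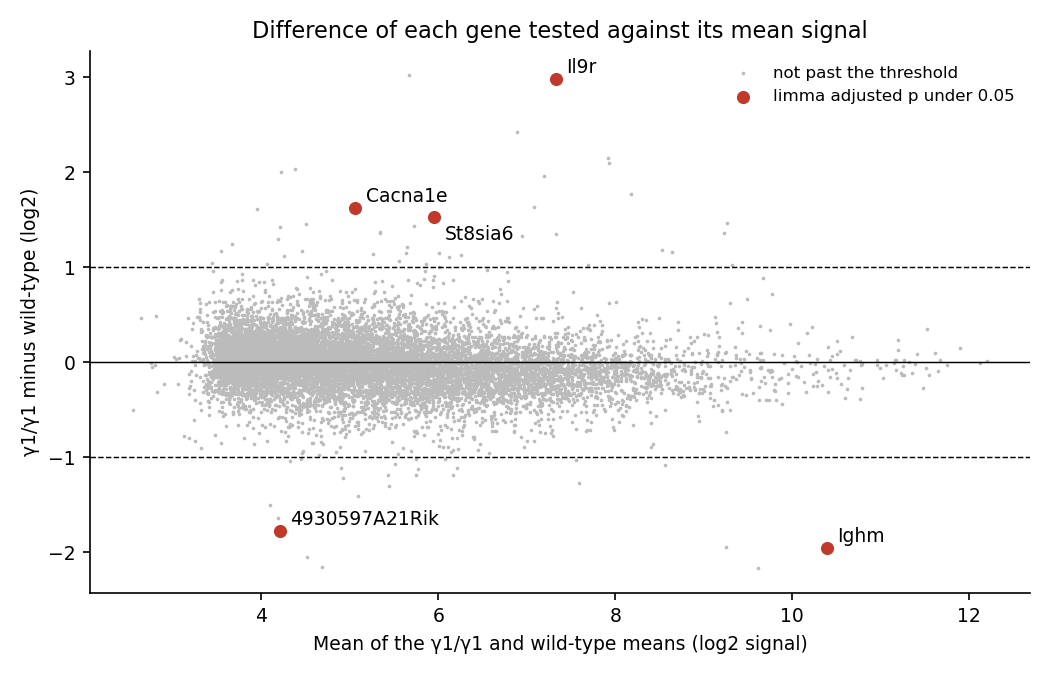
Each point is 1 of the 12170 genes tested, with the γ1/γ1 minus wild-type difference (log2) against the mean of the means of both genotypes (log2 signal, n = 3 arrays each). The red points are the 5 genes past the threshold, the dashed lines mark a 2-fold difference, and nearly all genes lie between them.

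The calls rest on the shared estimate of spread and on single arrays. When only the 6 γ1/γ1 and wild-type arrays were fitted, 0 genes passed limma's test, the smallest adjusted p was 0.0723, and 974 genes had an unadjusted p under 0.05. Without γ1/γ1 replicate 2 the count was also 0 (smallest adjusted p = 0.0855, 1016 genes at an unadjusted p under 0.05). Leaving out γ1/γ1 replicate 3 gave 3, and leaving out wild-type replicate 2 or 3 gave 2 each. On the arrays of high Xist alone, which drops γ1/γ1 replicate 1 and ε/ε replicate 1, limma called Ighm, Traf1 and Clec4g. The sizes of the 5 differences moved little under these changes, as given with each gene.

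The promoters of the 3 genes that rose are shown because these are the named genes whose message was gained in γ1/γ1 cells. Each sequence is RefSeq's for GRCm38.p6, 300 bases, from 250 before to 50 after the gene's start, all on the minus strand. Il9r is at chr11:32200230-32200529, Cacna1e at chr1:154725871-154726170 and St8sia6 at chr2:13793471-13793770. Capitals mark a match to one of 6 motifs named in the next paragraph.
Il9r: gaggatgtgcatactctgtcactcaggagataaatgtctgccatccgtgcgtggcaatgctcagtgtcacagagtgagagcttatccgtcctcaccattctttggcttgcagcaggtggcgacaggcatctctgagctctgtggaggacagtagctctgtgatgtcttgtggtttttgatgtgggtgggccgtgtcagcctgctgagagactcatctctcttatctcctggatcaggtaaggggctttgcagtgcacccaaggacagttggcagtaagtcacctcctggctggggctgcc
Cacna1e: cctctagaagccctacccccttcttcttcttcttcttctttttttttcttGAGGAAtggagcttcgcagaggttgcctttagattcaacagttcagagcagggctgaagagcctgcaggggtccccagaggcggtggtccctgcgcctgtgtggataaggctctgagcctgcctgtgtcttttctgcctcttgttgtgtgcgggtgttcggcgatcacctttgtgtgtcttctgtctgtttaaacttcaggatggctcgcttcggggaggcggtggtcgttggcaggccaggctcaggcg
St8sia6: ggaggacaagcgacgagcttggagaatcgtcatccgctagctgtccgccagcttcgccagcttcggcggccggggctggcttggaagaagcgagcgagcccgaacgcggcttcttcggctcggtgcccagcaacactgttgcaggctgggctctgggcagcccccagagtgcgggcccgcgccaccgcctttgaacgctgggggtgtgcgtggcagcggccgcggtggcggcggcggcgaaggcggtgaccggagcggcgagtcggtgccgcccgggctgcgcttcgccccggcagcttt

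Base composition differed among them. The St8sia6 promoter was 72% G and C, the Il9r promoter 54.3% and the Cacna1e promoter 55.3%, against a median of 52.7% over the 32851 mouse promoters of the RefSeq table. The 6 motifs, searched on both strands and not overlapping as matched here, were the octamer ATGCAAAT, the AP-1 site TGANTCA, the NF-κB half-sites GGGA and TTCC with any 2 bases between, the PU.1 core GAGGAA, the E-box CAGCTG and the RBPJ core TGGGAA. The one match was GAGGAA in the Cacna1e promoter, on the gene's strand with its first base at -200. This motif lies in 28.3% of all promoters. The octamer lies in 1.74%, the AP-1 site in 7.81%, the NF-κB site in 1.47%, the E-box in 16.3% and the RBPJ core in 25.6%. These letters did not occur in the Il9r and St8sia6 windows, which says nothing of the factors themselves.

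Il9r, the receptor chain that binds interleukin 9 and signals together with the common γ chain, gave the largest difference of the 5. It read 8.53, 8.88 and 9.03 on γ1/γ1 replicates 1 to 3 and 6.29, 5.12 and 6.10 on the wild-type arrays. The lowest γ1/γ1 array lay more than 2 log2 units above the highest wild-type array, so the groups did not overlap, as was so for 12.4% of all genes tested (4.68% with γ1/γ1 above and 7.71% below). The difference was 2.98 (SE 0.30, 95% interval 2.32 to 3.64, 7.87-fold higher, limma adjusted p = 0.0122). Over the 22 alternative fits it was 2.62 to 3.20, with adjusted p from 0.00458 to 0.0855 and the call kept in 17. The call was lost without γ1/γ1 replicate 2 (adjusted p = 0.0855), without γ1/γ1 replicate 3 (0.0544), with the 6 arrays only (0.0723) and on the arrays of high Xist (0.0659). In ε/ε cells Il9r read 8.66 ± 0.32, and ε/ε minus γ1/γ1 was -0.15 (95% interval -0.81 to 0.51, adjusted p = 0.816). Il9r is also on the list of marginal zone markers, where it was the member that rose.

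Cacna1e encodes the pore of a voltage-gated calcium channel of the R type. Its signal was 6.13, 5.83 and 5.65 in γ1/γ1 cells and 4.12, 4.34 and 4.27 in wild-type cells. The wild-type arrays lay close together and less than 1 log2 unit above the array medians, and each γ1/γ1 array was well above them, with no overlap. The difference was 1.62 (SE 0.17, 95% interval 1.25 to 2.0, 3.08-fold higher, limma adjusted p = 0.0122). Over the alternatives it stayed between 1.49 and 1.73 with adjusted p from 0.00458 to 0.0855, and the call was kept in 16 of 22. The call was lost on the arrays of high Xist (0.0659), when γ1/γ1 replicate 2 was left out (0.0855), and likewise for wild-type replicates 2 (0.0603) and 3 (0.0636). Cacna1e stood higher still in ε/ε cells, at 6.85 ± 0.21. That was 0.98 above γ1/γ1 (SE 0.17, adjusted p = 0.0166).

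St8sia6, an enzyme that adds sialic acid in α2,8 linkage to glycans, read 6.85, 6.82 and 6.50 in γ1/γ1 cells and 5.37, 5.01 and 5.18 in wild-type cells. All 3 γ1/γ1 arrays were above all 3 wild-type arrays by more than 1 log2 unit. The difference was 1.53 (SE 0.17, 95% interval 1.17 to 1.90, 2.89-fold higher, limma adjusted p = 0.0122). Over the alternatives it ranged from 1.45 to 1.64 with adjusted p from 0.00619 to 0.0855, and 15 of 22 fits kept the call. The adjusted p was 0.0648 or 0.0855 when γ1/γ1 replicate 1 or 2 was left out, and 0.0842 or 0.0746 when wild-type replicate 2 or 3 was. The arrays of high Xist alone gave 0.0815. St8sia6 passed the test as lower in ε/ε than in γ1/γ1 cells. It read 5.74 ± 0.19 there, and the difference ε/ε minus γ1/γ1 was -0.99 (SE 0.17, adjusted p = 0.0152).

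Ighm encodes the μ constant region of IgM. Its brightest probe set, 17284360, read 8.80, 9.62 and 9.81 in γ1/γ1 cells and 11.27, 11.56 and 11.27 in wild-type cells. Every γ1/γ1 array was below every wild-type array, though all 6 were far above the array medians. This signal fell by 1.96 on the log2 scale (a difference of -1.96, SE 0.24, 95% interval -2.48 to -1.43, 3.88-fold lower, limma adjusted p = 0.0196). Over 21 alternatives the difference ran from -2.16 to -1.65 and the adjusted p from 0.00692 to 0.196, and 13 kept the call. Leaving out γ1/γ1 replicate 2 (0.0855), any wild-type array (0.08, 0.196 and 0.108 for replicates 1, 2 and 3) or ε/ε replicate 2 (0.068) or 3 (0.0543) ended it. At this probe set Ighm was 1.57 higher in ε/ε than in γ1/γ1 cells (SE 0.24, adjusted p = 0.0099), but another probe set passed in the opposite direction, as given below.

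The readings of Ighm differed among its probe sets, whose positions in the gene were not used here. The array has 7 probe sets that carry this symbol alone, and in a fit over all 41345 probe sets 1 of them passed, with 27 called in all (0.0653%). Probe set 17284349 read 5.01, 3.75 and 3.07 in γ1/γ1 against 11.01, 10.62 and 10.68 in wild-type cells (limma adjusted p = 0.00154, range over 14 alternatives 0.000212 to 0.0341, called in all 14). On the γ1/γ1 arrays replicate 1 lay above its array's median of 3.68, replicate 2 near its median of 3.63 and replicate 3 below its median of 3.69, so levels and not a fold are given. Probe set 17284360, the one described above, missed the threshold in this wider fit (adjusted p = 0.0526, range 0.0286 to 0.252). Probe set 17284660 read 2.68 ± 0.44 in γ1/γ1 against 5.47 ± 0.68 in wild-type cells with an adjusted p of 0.0865 (range 0.0487 to 0.351). The other 4 differed by -0.66 to 0.18. Among them 17284503 read 5.47 ± 0.43 in γ1/γ1 against 5.33 ± 0.31 in wild-type cells, and 3.78 ± 0.33 in ε/ε cells. It passed as lower in ε/ε than in γ1/γ1 (difference -1.69, limma adjusted p = 0.0247), while 17284360 passed as higher (1.57, adjusted p = 0.0234). Signal called Ighm thus remained in γ1/γ1 cells at some probe sets and was near background at others. Probe set 17284349 told the 3 γ1/γ1 labels from the 3 wild-type labels. It was low in ε/ε cells too, at 4.51, 4.54 and 4.27, so it did not tell γ1/γ1 from ε/ε (difference 0.49, limma adjusted p = 0.573).

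**Figure D2:**
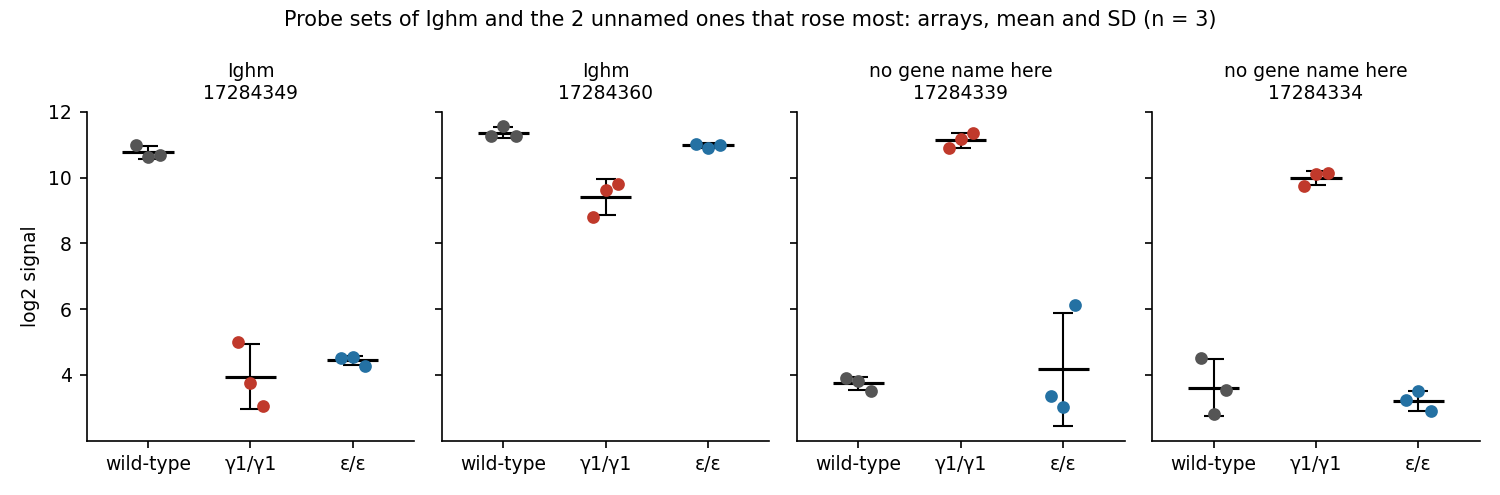
Each panel is 1 probe set, with the log2 signal of each array as a point and the mean and SD of each genotype (n = 3) in black. Ighm probe set 17284349 sits between 3.07 and 5.01 in γ1/γ1 and at 10.62 or above in wild-type, Ighm probe set 17284360 is lower in γ1/γ1 than in wild-type, and the pair of probe sets with no gene name here is high in γ1/γ1 cells.

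The gene 4930597A21Rik is a long noncoding RNA with no stated role. It read 3.36, 3.09 and 3.52 in γ1/γ1 against 5.47, 4.69 and 5.14 in wild-type cells. The γ1/γ1 signals all lay below the arrays' medians, as did those of ε/ε, and did not overlap the wild-type ones. The gene thus passed the filter on dim genes only through the wild-type arrays, where it is high, so that it had to differ, and its p is no support of its own. The difference was -1.78 (SE 0.21, 95% interval -2.25 to -1.32, limma adjusted p = 0.0196). No fold is given, since the γ1/γ1 level is at background. It was the least stable of the 5 calls. Over 20 alternatives the difference was -1.99 to -1.60 and the adjusted p 0.00692 to 0.183, and 11 kept the call. It was lost without any 1 of the γ1/γ1 arrays (0.0994, 0.117 and 0.0639 for replicates 1, 2 and 3), without wild-type replicate 1 (0.055) or 3 (0.108), and on the arrays of high Xist (0.183). Its ε/ε reading was 3.19 ± 0.18, and ε/ε minus γ1/γ1 was -0.13 (95% interval -0.59 to 0.34, adjusted p = 0.774).

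**Figure D3:**
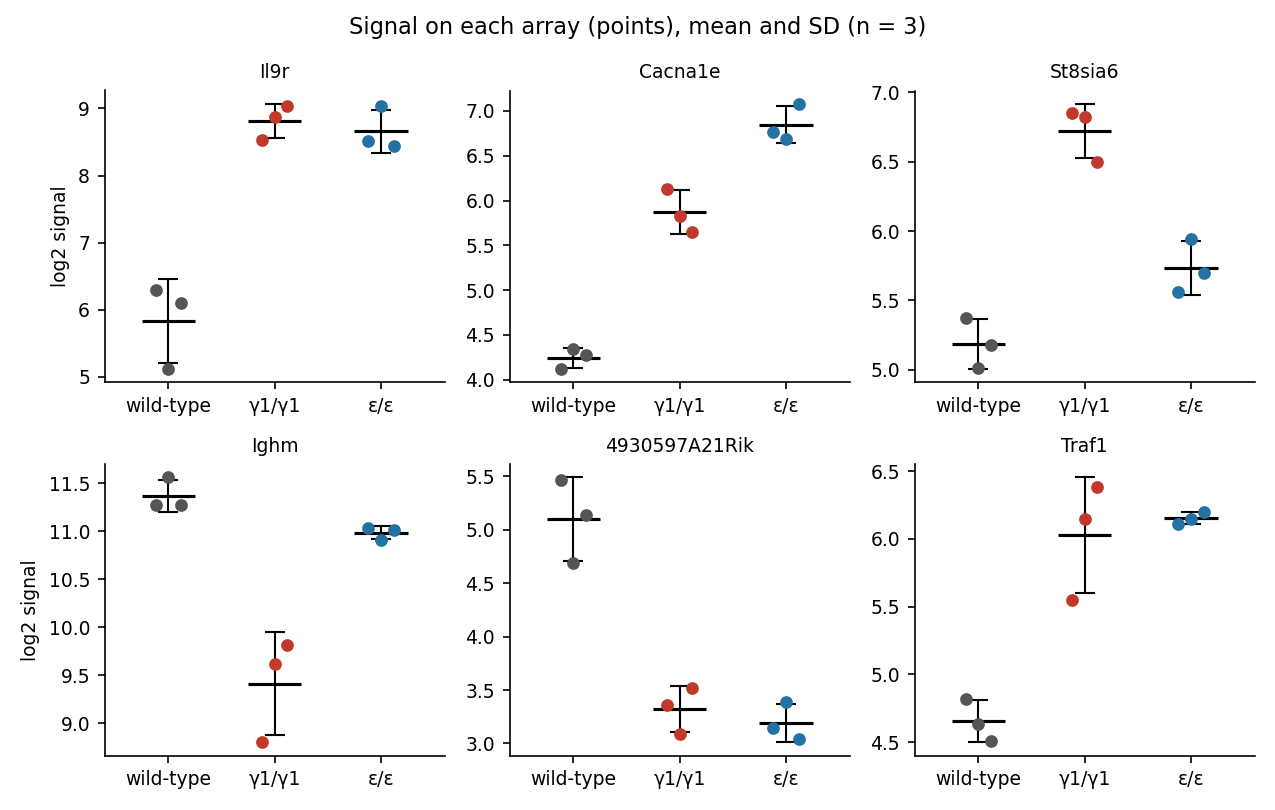
Each panel plots the log2 signal of 1 gene on every array (points), with the mean and SD (n = 3) of wild-type, γ1/γ1 and ε/ε cells. Il9r, Cacna1e and St8sia6 are higher in γ1/γ1 than in wild-type cells and Ighm and 4930597A21Rik lower, while Traf1, the gene with the next smallest p, missed the threshold; each panel has its own axis, which does not start at 0.

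Of the 15 genes with the next smallest p, none passed. They were chosen by p, and in all 15 the groups did not overlap, beside 12.4% of all genes. Traf1, an adaptor of TNF receptors and itself a target of NF-κB, came closest. It read 5.55, 6.15 and 6.38 in γ1/γ1 against 4.82, 4.63 and 4.51 in wild-type cells, and γ1/γ1 replicate 1 was the lowest of its group. The difference was 1.37 (SE 0.20, 95% interval 0.92 to 1.82, limma adjusted p = 0.0957, range over the alternatives 0.0129 to 0.401). Without γ1/γ1 replicate 1 it was 1.61 with an adjusted p of 0.0172, and on the arrays of high Xist 1.61 with 0.0456. Traf1 in ε/ε cells stood at 6.15 ± 0.05, 0.13 from γ1/γ1 (95% interval -0.32 to 0.58).

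The other 14 covered several roles. Lilrb4a, an inhibitory receptor of the leukocyte immunoglobulin-like family, had a difference of 3.02 (SE 0.51, limma adjusted p = 0.154), larger than that of Il9r. It read 7.50, 7.63 and 6.41 in γ1/γ1 against 4.20, 2.96 and 5.33 in wild-type cells, so its arrays spread more widely within each genotype. Clec4g, a C-type lectin, read 3.49 ± 0.26 in γ1/γ1 against 5.54 ± 0.34 in wild-type cells (adjusted p = 0.107, range 0.0104 to 0.402). It passed with array weights, on the arrays of high Xist and without ε/ε replicate 1. Ptpn14, a tyrosine phosphatase on the marginal zone list, differed by 1.14 (adjusted p = 0.184) and Rras2, a small GTPase of the RAS family, by 0.74 (adjusted p = 0.187). Rras2 had narrow groups, at 7.94, 7.86 and 7.88 against 7.04, 7.26 and 7.16. Cyp2r1, a vitamin D 25-hydroxylase, differed by 1.00, and Cpne4, a calcium-dependent phospholipid-binding copine, by 1.24. Jhy, which acts in motile cilia, had a difference of -2.16 (adjusted p = 0.154), and it passed without ε/ε replicate 3 (adjusted p = 0.0358).

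Some of these genes also set γ1/γ1 apart from ε/ε cells, where 324 genes (2.66%) passed limma's test. Cyp2r1 was lower in ε/ε than in γ1/γ1 (difference -1.26, adjusted p = 0.00538), and Cpne4 had the same difference of -1.26 (adjusted p = 0.0155). Cpne4 lay above the array median on the γ1/γ1 arrays alone and passed the filter through them, so it had to differ and its p is no support of its own. Gm5781 differed by -1.0 (adjusted p = 0.0488) and Jhy by 1.65 (adjusted p = 0.048). For Traf1, Rnu3a, Ptpn14 and Rpph1 the mean in ε/ε lay within 0.22 of that in γ1/γ1, and their 95% intervals lay between -0.47 and 0.80.

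**Figure D4:**
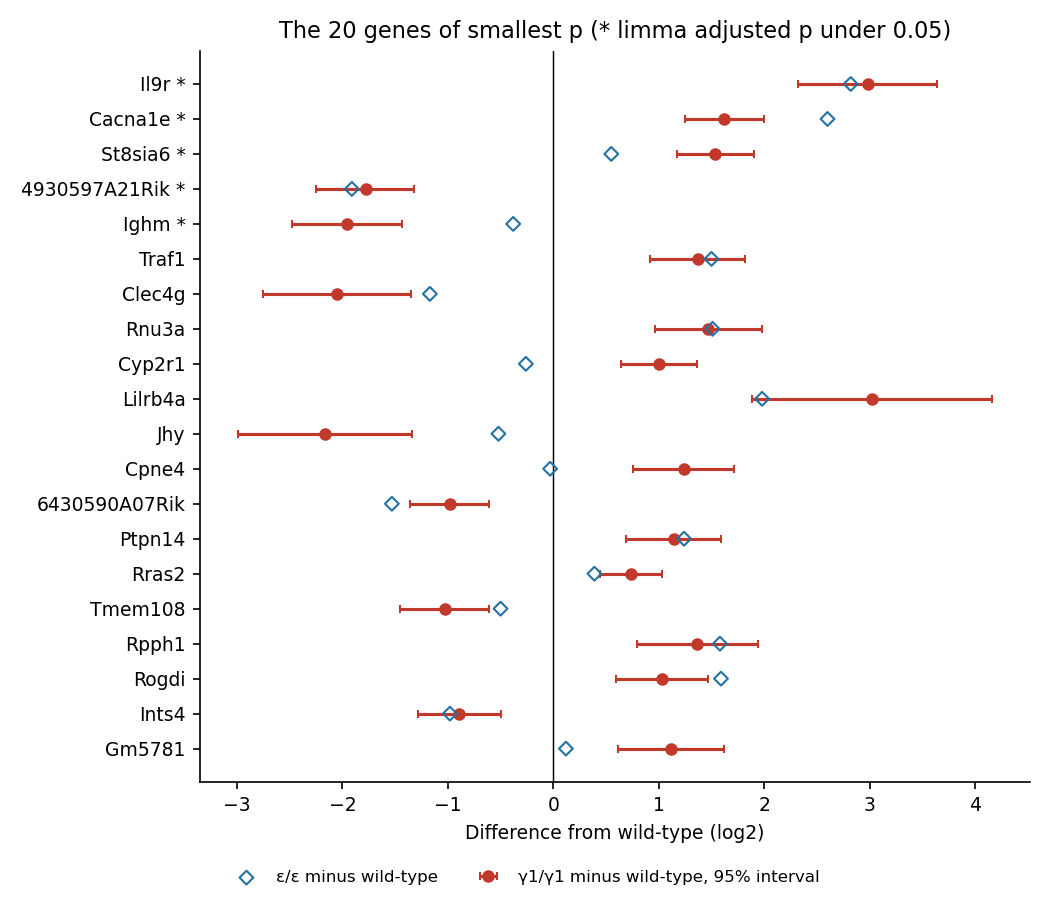
The 20 genes of smallest p, with the γ1/γ1 minus wild-type difference (red point) and its 95% interval and, as a point of reference, the ε/ε minus wild-type difference (open diamond), both on the log2 scale. Both differences use the same 3 wild-type arrays; St8sia6, Ighm, Cyp2r1, Cpne4 and Jhy are among the genes whose diamond lies outside the red interval.

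A difference of 2-fold or more was seen in 66 genes, 41 higher and 25 lower in γ1/γ1 cells, against 497 between ε/ε and wild-type. The 5 called genes were among the 66. Of the other 61, which were chosen by size, 50 had an unadjusted p under 0.05 (6.82% of all genes had) and 45 had groups that did not overlap (12.4% of all genes). The remaining 16 had overlapping groups. Xist was the lowest of all, at -2.17 (SE 1.67), from its single low reading on γ1/γ1 replicate 1. Serinc3, a membrane protein, read 7.85, 8.37 and 8.58 in γ1/γ1 against 10.58, 10.06 and 10.02 in wild-type cells (difference -1.95, SE 0.45, limma adjusted p = 0.364). Pou2af1, the B cell coactivator of octamer factors, read 9.05, 9.24 and 9.38 against 8.58, 7.44 and 8.17 (difference 1.16, SE 0.27, adjusted p = 0.364). Serinc3 was chosen for mention after its values were seen. Both had groups that did not overlap.

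Other large differences came from uneven arrays. Apobec3, a cytidine deaminase that restricts retroviruses, read 8.83, 8.88 and 9.24 in γ1/γ1 cells, but 9.11 on wild-type replicate 1 and 5.73 and 5.80 on the other wild-type arrays. Ctse, the protease cathepsin E, read 8.62, 9.05 and 9.32 in γ1/γ1 cells, and 6.12, 5.67 and 8.74 in wild-type cells, so that here wild-type replicate 3 was the high array. Their differences were 2.10 (SE 0.74, limma adjusted p = 0.649) and 2.15 (SE 0.64, adjusted p = 0.53). Apobec3 passed when wild-type replicate 1 was left out and Ctse when wild-type replicate 3 was. Both were chosen for mention because of these calls. Hspa1a, an inducible HSP70, ranged from 5.88 to 10.10 in γ1/γ1 and from 4.91 to 7.02 in wild-type cells (difference 2.42, SE 0.99, adjusted p = 0.709).

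What stayed alike was judged by the 95% interval of each difference and not by a missed threshold. For 11026 of the 12170 genes (90.6%) this interval lay wholly within a 2-fold difference in either direction. The share was 83.1% to 93.4% over the alternatives, and 78.5% for ε/ε against wild-type. The median half-width was 0.42 on the log2 scale, so differences well under 2-fold would often go unseen. These intervals are gene by gene and assume that the 3 genotypes share 1 spread. The median SD over genes was 0.20 in γ1/γ1, 0.17 in wild-type and 0.22 in ε/ε cells.

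Gene lists for 27 pathways and 6 B cell subsets held 758 of the genes tested. Of these, 2 passed, Il9r and Cacna1e, and 668 (88.1%) had intervals within 2-fold, beside 0.0411% and 90.6% over all genes. The list medians ran from -0.19 to 0.25, while the same lists had medians from -0.32 to 0.83 and 83 genes past the threshold for ε/ε against wild-type.

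**Figure D5:**
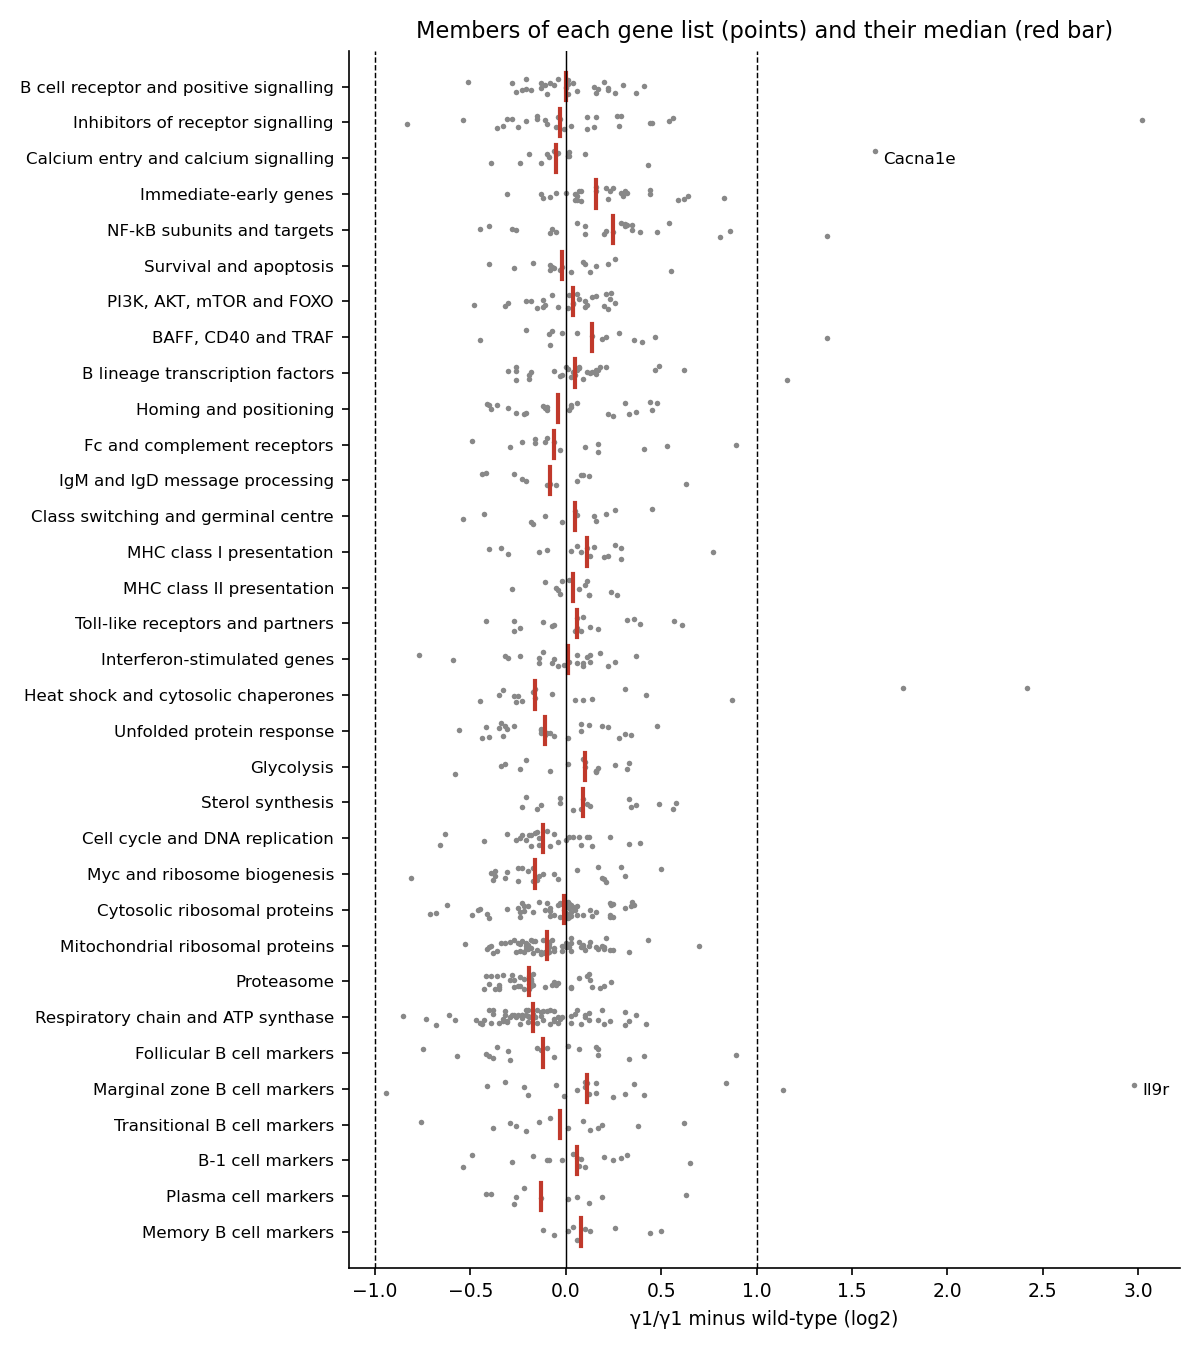
Each grey point is 1 tested member of a gene list, placed at its γ1/γ1 minus wild-type difference (log2, n = 3 arrays each), and the red bar is the list's median; the dashed lines mark 2-fold. All 33 medians lie between -0.19 and 0.25, and Cacna1e and Il9r are the members past the threshold.

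The receptor and its proximal signalling showed no gene past the threshold. All 31 members tested on that list had intervals within 2-fold, and their median was 0.00. Cd79a and Cd79b, the signalling chains of the receptor, read 9.30 ± 0.38 and 10.48 ± 0.15 in γ1/γ1 cells and 9.04 ± 0.62 and 10.42 ± 0.14 in wild-type cells. The differences were 0.26 (95% interval -0.39 to 0.91) and 0.06 (-0.26 to 0.39). Both genes' groups overlapped. Syk, the kinase that binds phosphorylated CD79 chains, differed by 0.37 (-0.02 to 0.76), and Btk, the kinase downstream of it, by 0.00 (-0.35 to 0.35). For the adaptor Blnk the difference was 0.15 (-0.18 to 0.48), and for the phospholipase Plcg2 it was -0.26 (-0.60 to 0.09). The smallest p on the list belonged to Fyn, a SRC-family kinase, at -0.51 (-0.84 to -0.19, limma adjusted p = 0.515). Of the 31, 1 member, the exchange factor Vav1, was higher in ε/ε than in γ1/γ1 cells (limma adjusted p = 0.048). This is near the 2.66% of all genes called in that comparison.

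Inhibitors of the receptor spread somewhat more, with Lilrb4a farthest out. Of 29 tested, 23 had intervals within 2-fold and the median was -0.03. Cd22, a sialic acid-binding inhibitory lectin, differed by -0.01 (95% interval -0.49 to 0.48), Inpp5d, which encodes the phosphatase SHIP-1, by -0.15 (-0.67 to 0.38), and Fcgr2b, the inhibitory IgG receptor, by -0.11 (-0.56 to 0.35). Sla, an adaptor that dampens receptor levels, read 6.34, 6.78 and 6.88 in γ1/γ1 against 7.60, 7.28 and 7.62 in wild-type cells (difference -0.83, SE 0.18, limma adjusted p = 0.364), with no overlap. On the calcium list 14 of 15 members were within 2-fold and the median was -0.05, and Cacna1e was the member outside. The PI3K, AKT, mTOR and FOXO list had 28 of 28 within 2-fold and a median of 0.04. Foxo1, the transcription factor that PI3K signalling holds out of the nucleus, differed by 0.14 (-0.37 to 0.65).

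Among transcriptional targets of signalling, the immediate-early list had a median of 0.16 over 29 genes, and none passed. Its differences ran from -0.31 to 0.83, and 19 of the 29 had intervals within 2-fold. Some members missed that limit through wide intervals and not large differences, such as Fosb (difference 0.06, SE 0.44) and Egr1 (SE 0.44). The SE takes in the ε/ε arrays, over which Egr1 had an SD of 0.99, against 0.52 for γ1/γ1 and 0.34 for wild-type arrays. Jun, a subunit of AP-1, read 5.59, 6.73 and 6.20 in γ1/γ1 against 5.76, 5.30 and 4.98 in wild-type cells. Its groups overlapped, and the difference was 0.83 (95% interval 0.01 to 1.64, limma adjusted p = 0.725). Egr1 differed by -0.08 (-1.07 to 0.90) and Nr4a1 by 0.16 (-0.41 to 0.72), both being early reporters of receptor signalling. In ε/ε cells 12 of the 29 rose against wild-type (median 0.83), beside 6.34% of all genes called in that comparison. Of the 29, 3 were higher in ε/ε than in γ1/γ1, beside 2.66% of all genes called, including Klf4 (difference 1.22, adjusted p = 0.00707) and Rgs1 (2.45, adjusted p = 0.016).

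The NF-κB list had the highest median of the 33, at 0.25 over 25 genes, with 18 within 2-fold and none past the threshold. After Traf1, the members Nfkb2 and Nfkbie led it. Nfkb2, the precursor of the p52 subunit, read 5.91, 6.31 and 6.37 in γ1/γ1 against 5.89, 4.99 and 5.27 in wild-type cells (difference 0.81, SE 0.22, limma adjusted p = 0.498). Nfkbie, an inhibitor of NF-κB, read 5.63, 6.18 and 6.47 against 5.86, 4.80 and 5.02, with overlapping groups (difference 0.86, SE 0.35, adjusted p = 0.698). In both, wild-type replicate 1 was the highest wild-type array and γ1/γ1 replicate 1 the lowest of its group. Over the members of this list the median of γ1/γ1 replicate 2 stood 0.43 above the wild-type mean, replicate 1 0.08 above and replicate 3 0.17 above, so the arrays of 1 genotype differed among themselves by more than the list's median. Rel differed by -0.28 (95% interval -0.66 to 0.11).

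Survival genes had a median of -0.02 over 17, of which 16 were within 2-fold. Bcl2, the antiapoptotic founder of its family, read 7.93 ± 0.06 in γ1/γ1 against 7.71 ± 0.04 in wild-type cells (difference 0.22, 95% interval -0.17 to 0.61). It was lower in ε/ε than in γ1/γ1 cells, with a difference of -1.87 (SE 0.18, limma adjusted p = 0.00169). Mcl1, another antiapoptotic relative, had the smallest p on the list at -0.40 (-0.70 to -0.10, adjusted p = 0.633). The BAFF, CD40 and TRAF list had 14 of 15 within 2-fold with Traf1 outside.

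Among 32 B lineage transcription factors none passed, 29 were within 2-fold and the median was 0.05. Pou2af1, described above, was the farthest out at 1.16 (95% interval 0.57 to 1.76), with groups that did not overlap. Pax5 differed by 0.17 (95% interval -0.33 to 0.67) and Ebf1 by 0.04 (-0.26 to 0.35), both required to hold B lineage identity. Antigen presentation genes lay mostly within 2-fold. All 14 MHC class II genes tested were within 2-fold with a median of 0.04, and the class II transactivator Ciita differed by -0.05 (-0.47 to 0.37). Of the class I genes 16 of 17 were within 2-fold. For Toll-like receptors and their partners the count was 17 of 19, and for interferon-stimulated genes 22 of 24.

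Subset markers gave mixed readings. Of 20 follicular markers none passed, 16 were within 2-fold and the median was -0.12. Fcer2a was higher on every γ1/γ1 array, at 9.91, 10.29 and 10.16 against 9.51, 9.14 and 9.02 (difference 0.89, 95% interval 0.43 to 1.35, limma adjusted p = 0.364, range 0.185 to 0.923). Cr2, which encodes CD21, was likewise higher on every array, by 0.41 (0.14 to 0.68, adjusted p = 0.524). Cd200, a ligand that quiets myeloid cells, read 6.49, 6.84 and 7.15 against 7.84, 7.40 and 7.49 (difference -0.75, SE 0.24, adjusted p = 0.58). Zfp318, which is needed for IgD expression, differed by -0.42 (-0.87 to 0.04), and it was lower in ε/ε than in γ1/γ1 by a difference of -1.57 (SE 0.20, adjusted p = 0.0055).

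Of 21 marginal zone markers 1 rose, Il9r, and 15 were within 2-fold, with a median of 0.11. The members at the edges went both ways. Myof, a membrane repair protein, read 3.99, 4.56 and 4.63 in γ1/γ1 against 3.18, 3.64 and 3.85 in wild-type cells (difference 0.84, SE 0.22, limma adjusted p = 0.482). Cd36, a scavenger receptor, read 5.46, 5.44 and 4.76 against 6.04, 6.24 and 6.21 (difference -0.94, SE 0.25, adjusted p = 0.482). Cd1d1 and Cd9, surface markers used to sort marginal zone cells, differed by 0.10 (95% interval -0.22 to 0.42) and 0.16 (-0.26 to 0.59). Notch2, the receptor that drives the marginal zone fate, differed by -0.01 (-0.42 to 0.39), and its target Hes1 by 0.11 (-0.25 to 0.47). In ε/ε cells 10 members rose and 1 fell against wild-type (median 0.82), beside 6.34% of all genes called. Against γ1/γ1, 6 were higher and 1 lower in ε/ε, beside 2.66% of all genes called. The lower one in both was Ephx1, an epoxide hydrolase, at -1.81 from wild-type (adjusted p = 0.00397) and -1.49 from γ1/γ1 (adjusted p = 0.0134). Among the higher ones were Ackr3, a chemokine-scavenging receptor, by 2.03 (adjusted p = 0.0036), Cd36 by 1.76 (adjusted p = 0.00879) and Hes1 by 1.06 (adjusted p = 0.0104). Il9r passed the test against wild-type in both mutants.

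Markers of 4 other subsets were also measured. The transitional list had a median of -0.03 over 14 genes, the B-1 list 0.06 over 17, the plasma cell list -0.13 over 11 and the memory list 0.08 over 10, and none of their members passed. Within 2-fold were 12, 15, 9 and 9 of them. On the list for the processing of IgM and IgD messages, 12 of 13 genes tested were within 2-fold. This list also holds Mzb1, Txndc5, Derl3 and Creld2, proteins of the endoplasmic reticulum that do not process messages. Ell2, an elongation factor that favours the secreted form, had the smallest p, with a difference of 0.63 (95% interval 0.08 to 1.19, limma adjusted p = 0.688).

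Housekeeping lists had medians on both sides of 0. The proteasome list had the lowest median of the 33, at -0.19 over 44 genes, and the respiratory chain followed at -0.17 over 72. Within 2-fold were 42 and 66 of these. For Myc and ribosome biogenesis the median was -0.16 over 26, for heat shock genes -0.16 over 19, for the cell cycle -0.12 over 30, for the unfolded protein response -0.11 over 27 and for mitochondrial ribosomal proteins -0.10 over 69. Cytosolic ribosomal proteins had a median of -0.01 over 63, glycolysis 0.10 over 17 and sterol synthesis 0.09 over 17. These medians compare with -0.02 over all genes, and none of the members passed. For the respiratory chain the medians of the 3 γ1/γ1 arrays were -0.25, -0.07 and -0.18 and those of the wild-type arrays 0.08, -0.08 and 0.00, relative to the wild-type mean, so the sets overlapped. Mki67, a marker of cycling cells, differed by -0.24 (95% interval -0.80 to 0.32).

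Gene classes other than pathways were noisier. Only 27 of 65 small nucleolar RNA genes, 105 of 163 microRNA genes and 91 of 119 olfactory receptor genes had intervals within 2-fold, with medians of 0.07, 0.02 and 0.04 and none past the threshold. Snord89 gave the highest value among the small nucleolar RNAs, 1.96 (SE 0.44, limma adjusted p = 0.364), with 8.32, 7.79 and 8.40 in γ1/γ1 against 6.30, 7.18 and 5.15 in wild-type cells. Among immunoglobulin segments, 1 heavy chain variable segment was tested, Ighv1-53, at -1.19 (SE 0.31, adjusted p = 0.482), and 8 light chain variable segments had a median of 0.11. Ighg3, the gene of the γ3 constant region, read 5.57, 6.31 and 6.19 in γ1/γ1 against 4.59, 4.95 and 4.44 in wild-type cells (difference 1.36, SE 0.41, adjusted p = 0.544), without overlap. Ighg3 was chosen for mention after its values were seen.

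Markers of other cell types, 8 lists with 54 genes tested, gave 0 calls between γ1/γ1 and wild-type by limma, with 6 at an unadjusted p under 0.05, beside 6.82% of all genes. Of 24 macrophage markers 16 were tested, and 4 of these (25%) had intervals within 2-fold, beside 90.6% of all genes. These intervals use a spread shared by all genotypes, ε/ε included. Vcam1 had an SD of 0.18 over γ1/γ1 arrays and 0.18 over wild-type arrays, but an SE of 0.80. For Hmox1 these values were 0.35, 0.13 and 0.80, and for Axl 0.13, 0.06 and 0.58. Spic and Ctsd were uneven among the γ1/γ1 arrays themselves (SD 0.75 and 1.16). The 25% is thus not a measure of γ1/γ1 and wild-type arrays alone. In this fit a macrophage difference was not resolved for most members. The summed linear signal of the 24 was 345 to 415 on γ1/γ1 arrays and 354 to 362 on wild-type arrays. It reached 482 to 2999 on ε/ε arrays. Lyz2, a lysozyme that marks myeloid cells, was near or below the array median on every γ1/γ1 and wild-type array (2.73 to 4.14), and C1qa of the complement C1 complex read 4.34 ± 0.20 in γ1/γ1 against 4.17 ± 0.34 in wild-type cells. Of 23 T cell markers 16 had a probe set, and 8 of these were above the array median on no γ1/γ1 or wild-type array. The summed signal was 312 to 339 in γ1/γ1 and 352 to 427 in wild-type cells. For neutrophils 12 of 17 were at or below it throughout, with sums of 160 to 167 and 155 to 176. Dendritic cell sums were 418 to 537 and 464 to 509. The sums of stromal and endothelial markers (455 to 529 in γ1/γ1 and 545 to 591 in wild-type) and of erythroid markers (115 to 130 and 133 to 150) were lower on every γ1/γ1 array, as were those of T cell markers. Single bright members weigh on these sums. Cd2 of the T cell list read 7.19 in γ1/γ1 against 7.71 in wild-type cells, and Tfrc of the erythroid list 5.58 against 5.98. Pecam1 and Vim of the stromal list, also on the lists of receptor inhibitors and B-1 markers, read 7.62 against 7.94 and 7.19 against 7.28. The other tested members had means of at most 4.64, so the sums do not show how many such cells were present. The part of other cells in any result was not tested beyond these values.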

How the data were processed

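Biotin-labelled RNA of sorted cells was read on single-colour arrays, per the labels' protocols. The authors deposited log2 values for 41345 probe sets, a scale inferred here from their range. The submitters' processing notes name R 3.3.1; how background, normalization and probe summary were handled is not given in the sources used here. Scanner files were not analysed here, and the number of arrays limits the precision.

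Of the probe sets, 23521 had 1 gene symbol, 1814 several and 16010 none here. Each of 22180 genes was represented by its brightest single-symbol probe set across 9 arrays (1082 genes had a choice). Genes above the array median on at least 3 arrays were tested (12170, with 10010 set aside). One limma 3.58.1 model under R 4.3.3 held all 9 arrays, with a mean per genotype and no other term, then eBayes and Benjamini-Hochberg adjustment over all genes. A 95% interval between -1 and 1 (log2) counted as within 2-fold. Ighm probe sets came from the same model over all probe sets. Lists got counts and medians, with no set test. On simulated data for γ1/γ1 against wild-type over 12170 genes, 72 of 100 genes changed 2-fold and 99 of 100 changed 4-fold were recovered. Of 182 calls 11 were false, and 0 genes were called with none changed. The simulated noise was independent between arrays, and far more genes were changed than the 5 called in the real comparison. The adjusted threshold eases as more genes change, so these recovery rates do not carry over to the real data.

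The comparison, members and 48 gene lists were chosen with earlier results of these data known. The rule for named genes took the called genes, those of smallest p up to 20, then Ighm, Cd79a, Cd79b, Ms4a1, Fcer2a, Cr2, Syk, Bcl2, Zfp318, Jun, Xist and a gene that is not reported here, and for each list its called members or the member of smallest p. Other list members are values chosen with results known. Alternatives were quantile or median normalization, 3 filters on dim genes, the mean of probe sets, a trended robust variance, array weights, the 6 arrays alone, a replicate block, each array left out, a covariate for low Xist, the arrays of high Xist, protein-coding genes and other thresholds. Plots were made in matplotlib 3.10.9 (Python 3.11.15).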

Additional observations from a re-analysis of the deposited data

Results flagged for a closer look

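Outside the genes with a name, 16010 probe sets have no gene here, and 19 of them passed the limma fit over all probe sets. Of the 19, 5 were higher and 14 lower in γ1/γ1 cells. Over all 41345 probe sets 27 passed (0.0653%), and this fit had no filter on dim probe sets. The largest rise was that of probe set 17284339, which read 10.90, 11.17 and 11.36 in γ1/γ1 cells, 3.90, 3.81 and 3.52 in wild-type cells and 3.35, 3.02 and 6.14 in ε/ε cells. Its difference of 7.40 from wild-type (SE 0.71, limma adjusted p = 0.0134, range over 14 alternatives 2.91e-05 to 0.112, called in 6) starts from wild-type signals near the array medians, so no fold is given. One ε/ε array, replicate 3, stood above the other ε/ε arrays. Probe set 17284334 read 9.74, 10.10 and 10.13 in γ1/γ1 cells, 4.51, 2.80 and 3.54 in wild-type cells and 3.23, 3.52 and 2.90 in ε/ε cells, with a difference of 6.38 (SE 0.39, adjusted p = 0.00154, range 0.000731 to 0.0479, called in all 14 alternatives). These are signals in probe sets that the gene-level comparison did not use, and they were far above the wild-type level on every γ1/γ1 array. In the other direction, probe set 17284498 read 2.27, 2.10 and 2.32 in γ1/γ1 against 6.90, 7.43 and 6.84 in wild-type cells (adjusted p = 6.43e-05, range 4.63e-05 to 0.0068). Probe set 17284512 read 3.07, 2.67 and 3.90 against 8.34, 8.06 and 7.86 (adjusted p = 0.00154, range 0.000578 to 0.0479). In ε/ε cells they read 2.40 to 2.51 and 2.49 to 2.51, so these 2 were low in both mutants.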

How the results depend on the processing

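The count of 5 genes was 5 under quantile normalization, median-centring, no filter, a filter on the 6 arrays, the mean of probe sets and a trended robust variance, with all 5 genes shared in each. It was 0 with only the 6 arrays, 0 with the replicate number as a block, 3 on the arrays of high Xist and 3 among protein-coding genes, whose 11029 members leave out Ighm and 4930597A21Rik. Leaving out 1 array gave 0 to 6. At an adjusted p under 0.1 the count was 6. The labels do not say whether replicate numbers pair the samples. Deviations of same-numbered γ1/γ1 and wild-type arrays correlated at -0.09, -0.05 and 0.03, which showed no pairing but cannot settle it with 3 arrays a genotype. The block left 846 genes at an unadjusted p under 0.05. The Ighm probe sets called numbered 2 instead of 1 after median-centring and 1 to 2 with 1 array left out (2 without γ1/γ1 replicate 1, where 17284360 passed, and without wild-type replicate 3, where 17284660 did). Differences near 0 changed sign with 1 array left out: Cd79a ranged from -0.06 (without wild-type replicate 2) to 0.56, Cd79b from -0.02 (without wild-type replicate 2) to 0.14, with -0.01 without γ1/γ1 replicate 3, and Ighm probe set 17284507 from -0.22 (without wild-type replicate 2) to 0.60, with -0.16 without γ1/γ1 replicate 2. Of 1509 values of named genes under the alternatives, 35 lost the threshold and 10 gained it. All 35 losses were among the 5 called genes, the only ones that could lose it. Il9r kept its call in 17 of 22 alternatives, Cacna1e in 16 of 22 and St8sia6 in 15 of 22. Ighm kept it in 13 of 21 and 4930597A21Rik in 11 of 20. Of 1048 list medians, 76 moved by more than the spread between arrays. Except where the make-up of an alternative shows it, the cause was not tested. With 3 arrays a genotype, small differences and differences near background could not be resolved.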
